A study of Drosophila melanogaster with 22 samples.

Results

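Sp1 and buttonhead (btd) are a pair of Drosophila melanogaster genes for related zinc finger transcription factors of the Sp family. They were taken by name from the deposited transcript tables, where each had a single row, and are 2 of the 13686 genes with a single row. Both lie on chromosome X, and the RefSeq gene table (release 6 of the genome) places no protein-coding gene between them. Together the 2 genes are known for starting the development of ventral appendages, the legs and antennae, and for supporting the outgrowth of the leg. In the embryo btd is also a head gap gene, which acts early in the segments of the head, and both genes are known to be active in the developing nervous system. The ventral limb field arises where the signal of Wingless is received, and Sp1 and btd act there above Distal-less (Dll), the gene of distal limb fate.

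RNA-seq was done on tissue of 9 kinds, each with 1 deposited value per gene, in FPKM, fragments per kilobase of transcript scaled to sequencing depth. The imaginal discs, the larval sacs from which adult appendages form, were leg, haltere and wing discs of y;cn,bw,sp larvae at the third instar, and the leg disc is labelled as that of the third thoracic segment (T3). The appendages of pharate adults, formed flies still inside the pupal case, were T3 legs, halteres and wings of y;cn,bw,sp animals at stage P14. Whole embryos were of the strain OregonR and of the ages 2 to 4, 6 to 8 and 16 to 18 h from egg laying, so embryos and appendages differ in strain as well as in age. No mutation of Sp1 or btd and no treatment is named in the labels.

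The labels name 2 replicates behind each value, but the tables hold no value per replicate. No spread can therefore be given, no test between tissues was possible, and neighbouring levels in any order below could not be shown to differ. Levels were compared within a table only, and a gene called higher or lower is so by its listed value alone. Ratios are log2((FPKM + 1)/(FPKM + 1)), which understates the change of genes at low levels, and a gene was called apart at 2-fold or more if it reached 5 FPKM in either column. In RNA from whole tissue, fewer expressing cells and less RNA per cell cannot be told apart. A listed value of 0 need not mean absence. The neural genes ac, sc, l(1)sc and ase were listed at 0 in all 9 columns, and the muscle genes Mhc and up at 0 in 4 columns, among them pharate legs with Mlc2, another muscle gene, at 154923 FPKM.

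The labelled discs and embryos had most of their defining markers. Dll was listed at 866 FPKM in the leg disc and dac at 467, while the wing selector vg was listed at 2.76 in leg, 110 in haltere and 314 in wing discs. For Ubx, a Hox gene that marks the third thoracic segment, the levels were 319 in leg, 332 in haltere and 6.06 in wing discs. The early embryo had the maternal gene bcd at 282 and the early zygotic gene zen at 555 FPKM. The neuronal gene elav was listed at 469 at 6 to 8 h and 208 at 16 to 18 h, and the muscle gene Mhc at 0 at 16 to 18 h. Among pharate appendages, Dll was listed at 298 in legs, 101 in halteres and 187 in wings. The levels of dac were 101 in legs, 3.07 in halteres and 3.11 in wings, and those of vg 2.59, 55.0 and 127. Ubx was at 59.0 in pharate legs, 410 in halteres and 0 in wings. The Hox gene Scr, at 64.2, was listed above Ubx in pharate legs.

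In the discs, Sp1 and btd transcripts were concentrated in the leg disc. Sp1 was listed at 784 FPKM in leg, 17.1 in haltere and 4.54 in wing discs. For btd the levels were 217 in leg, 11.4 in haltere and 1.91 in wing discs. The order leg, haltere, wing was the same for both genes. Of the summed level of Sp1 over the 3 discs, 97.3% was in the leg disc, and of btd 94.2%, against a median of 33.2% over the 8681 genes that reached 5 FPKM in a disc. A leg share as large as that of Sp1 was found in 34 genes, Sp1 included, and none of the others reached its leg disc level. A share as large as that of btd was found in 41 genes, 6 of which, btd included, were listed at its level or above.

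**Figure D1:**
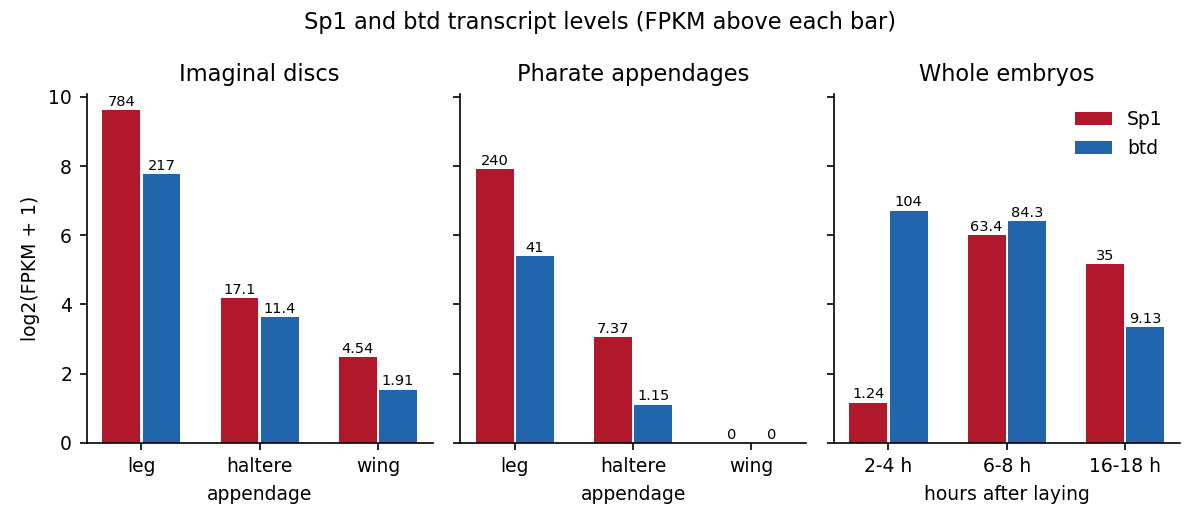
Bars give log2(FPKM + 1) of Sp1 (red) and btd (blue) in the discs, the pharate appendages and the embryo stages, with the deposited FPKM above each bar and 1 value per tissue. Within discs and within pharate appendages both genes are highest in the leg and lowest in the wing, while in embryos btd is highest at 2 to 4 h and Sp1 at 6 to 8 h.

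Set against all genes, Sp1 was an abundant transcript of the leg disc. It ranked 781 of 13686 genes there, above 91.6% of the genes listed above 0, and btd ranked 2773, above 70.0%. In the haltere disc Sp1 lay above 19.2% and btd above 15.5% of the genes listed above 0. In the wing disc the shares were 12.3% for Sp1 and 5.75% for btd. Both genes thus stood above the median of listed genes, 103 FPKM, in the leg disc, and well below the medians of 102 for haltere and 108 for wing discs.

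Against the wing disc, Sp1 in the leg disc was higher by a log2 ratio of 7.15 and btd by 6.23, or 173-fold and 114-fold as plain ratios of FPKM. In that comparison 10.7% of 8321 genes were called higher in the leg disc. Among the 8003 genes above 0 in both discs, Sp1 had the 2nd largest ratio and btd ranked 6. Against the haltere disc, the log2 ratio was 5.44 for Sp1 and 4.13 for btd, or 46.0-fold and 19.0-fold, with 3.24% of 8529 genes called higher in the leg disc. Sp1 ranked 1 among the 8351 genes above 0 in both discs and btd ranked 11. The leg disc thus stood apart from both dorsal discs in both genes, and by a larger ratio in Sp1 than in btd. Against the haltere disc, 20.4% of all calls were higher in the leg disc, and 38.0% once columns were scaled to equal sums. That scaling moved the median ratio of all genes by 0.37 over the haltere disc and by -0.20 over the wing disc. It gave 5.80 for Sp1 and 4.48 for btd over the haltere disc, and 6.99 and 6.11 over the wing disc.

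**Figure D2:**
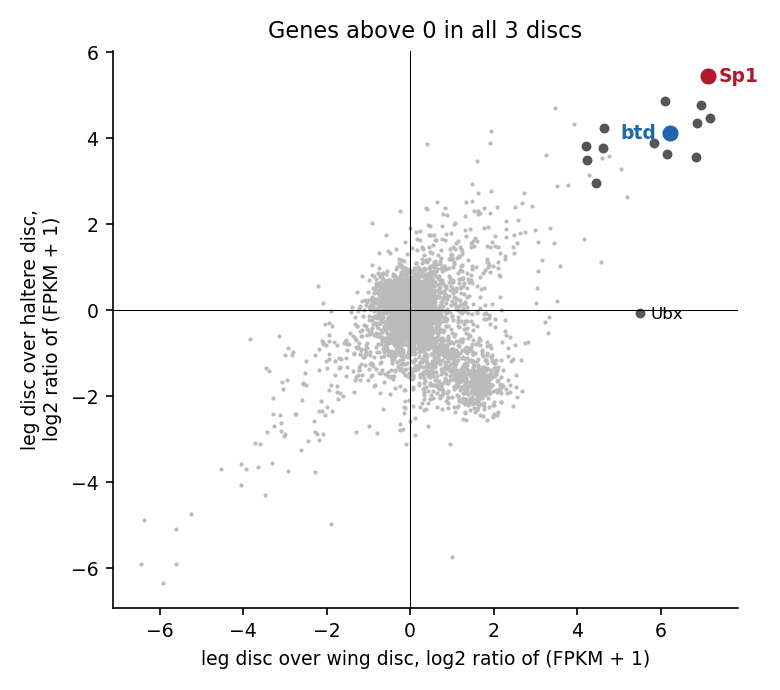
Each grey point is a gene above 0 in all 3 discs, with its log2 ratio of leg disc over wing disc on the horizontal axis and of leg disc over haltere disc on the vertical axis. Dark points are the other genes with 100 FPKM or more in the leg disc, at least 16-fold above the wing disc and a wing level above 0. Sp1 (red, 7.15 and 5.44) and btd (blue, 6.23 and 4.13) lie at the upper right, while Ubx lies to the right near 0 on the vertical axis.

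The haltere disc held more of both transcripts than the wing disc, at levels far under those of the leg disc. The log2 ratio of haltere disc over wing disc was 1.70 for Sp1 and 2.10 for btd, and 15.5% of 8577 genes were called higher in the haltere disc. Columns scaled to equal sums moved the median ratio of all genes by -0.56 and the share of calls that were higher to 41.5%, against 78.3% as deposited, and gave 1.20 for Sp1 and 1.64 for btd. With 10 FPKM added to each level in place of 1, both genes came to less than 2-fold (0.90 for Sp1 and 0.85 for btd). Among the 8108 genes above 0 in both discs, Sp1 ranked 715 and btd 592 by this ratio. Markers of larval tissues other than disc epithelium were also higher in the haltere disc. The summed level of 6 fat body markers was 15199 FPKM in haltere, 4253 in leg and 1189 in wing discs. For 6 salivary gland markers, with Sgs4 at 0 in each disc, the sums were 27899 in haltere, 7880 in leg and 2418 in wing discs. Both sums had the order haltere, leg, wing. For 5 haemocyte markers they were 490.5 in haltere, 163 in leg and 56.2 in wing discs. For 7 muscle markers, with wupA at 0 in the haltere and leg discs, they were 75983 in haltere, 22011 in leg and 7107 in wing discs. For 5 neuron and glia markers they were 34.5 in haltere, 36.4 in leg and 22.2 in wing discs, with brp at 0 in the haltere and wing discs. These markers of fat body, salivary gland, haemocytes and muscle were highest in the haltere disc, where Sp1 and btd were at 17.1 and 11.4 FPKM. Their part in the difference between haltere and wing disc was not tested.

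Other genes of the leg disc also had low but listed levels in the haltere disc. By a rule chosen after the values were seen, 15 genes had at least 100 FPKM in the leg disc, at least 16-fold more than in the wing disc, and a wing level above 0 (0.18% of 8321 genes). The leg disc level both chose these genes and divides their haltere disc level here, so a low percentage is in part set by the choice and is given as a description. Sp1, with a haltere disc level at 2.17% of its leg disc level, was the lowest of the 15, and btd, at 5.27%, was the 7th. Between Sp1 and btd stood H15 (2.67%), AP-2 (3.49%), CG6414 (4.36%), fd96Ca (4.55%) and disco-r (4.85%). The range above btd ran from unc-4 (5.82%) to Ubx (104%), the Hox gene shared by both T3 discs. The rule left out hth, at 118 FPKM in leg and 292 in haltere discs, since it was listed at 0 in the wing disc. The proneural gene ato (6.59%), the T-box gene mid (6.58%), the homeobox gene lbl (7.53%) and the zinc finger gene disco (8.40%) lay close to btd.

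**Figure D3:**
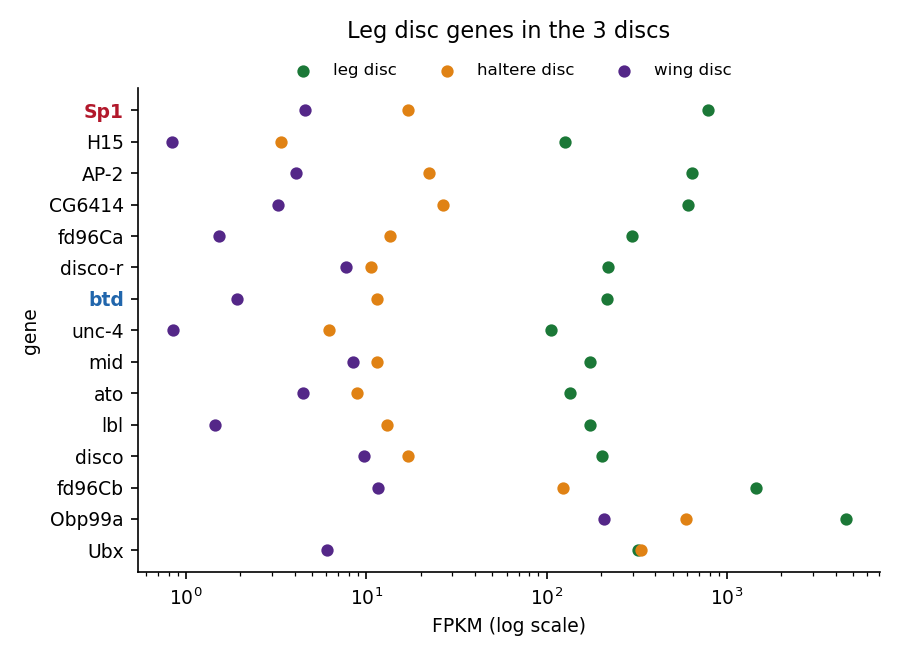
Points give the level in the leg (green), haltere (orange) and wing (purple) disc on a log axis for 15 genes. These had at least 100 FPKM in the leg disc, at least 16-fold more than in the wing disc and a wing level above 0. Genes are ordered from the lowest haltere level relative to leg at the top. Sp1 is at the top with 2.17%, btd is the 7th with 5.27%, and Ubx, at the bottom, has a haltere level of 104% of its leg level.

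The bias to the leg was also found in pharate appendages. Sp1 was listed at 240.2 FPKM in legs, 7.37 in halteres and 0 in wings of pharate adults. For btd the levels were 41.0 in legs, 1.15 in halteres and 0 in wings of pharate adults. The order of the appendages was that of the discs. Over the pharate haltere, the pharate leg was higher by a log2 ratio of 4.85 for Sp1 and 4.28 for btd, or 32.6-fold and 35.5-fold, and 17.1% of 9044 genes were called higher. Under scaling to equal sums, the share of calls that were higher in the pharate leg was 28.2%, against 54.4% as deposited, and the ratios were 4.30 and 3.77. Among 8607 genes above 0 in both, Sp1 ranked 21 and btd 89. Muscle moved with this comparison, with a sum over 7 muscle markers of 255461 FPKM in legs, 14098 in halteres and 27565 in wings of pharate adults, and its part was not tested. Mhc and up were at 0 in these 3 columns, and wupA in the pharate leg.

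Over the pharate wing no ratio is given, since both genes were listed at 0 there. Both were called higher in the pharate leg, as were 21.7% of 9011 genes. Sp1 was also called higher in the pharate haltere than in the pharate wing, as were 20.3% of 8990 genes, while btd stayed under 5 FPKM in both. The pharate leg held 97.0% of the summed level of Sp1 over the 3 appendages and 97.3% of that of btd, and 114 and 113 of 9252 genes had leg shares as large. In the pharate leg Sp1 ranked 2416 and btd 6204 of 13686 genes, above 74.0% and 33.2% of the genes listed above 0. Levels of discs and pharate legs come from tables that were scaled apart and were not compared.

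In embryos the 2 genes followed different courses. For Sp1 the levels were 1.24 FPKM in embryos of 2 to 4 h, 63.4 in those of 6 to 8 h and 35.0 in those of 16 to 18 h. For btd they were 104 in embryos of 2 to 4 h, 84.3 in those of 6 to 8 h and 9.13 in those of 16 to 18 h. At the earliest stage Sp1 stood above 3.14% of the genes listed above 0 and btd above 47.5%. At 6 to 8 h the shares were close, 39.7% for Sp1 and 45.1% for btd, and at 16 to 18 h Sp1 stood above 30.0% and btd above 12.4%.

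At 6 to 8 h, relative to 2 to 4 h, Sp1 was higher by a log2 ratio of 4.84, with 25.9% of 8244 genes called higher, while btd was within 2-fold (-0.30, or 0.03 with columns scaled to equal sums). Sp1 ranked 69 among the 7599 genes above 0 at both stages. At 16 to 18 h, relative to 6 to 8 h, btd was lower, at a log2 ratio of -3.07, with 31.1% of 10173 genes called lower, and Sp1 was within 2-fold at -0.84. The median ratio of all genes was -0.43 in that comparison as deposited and 0.23 with columns scaled to equal medians, which gave -2.46 for btd and -0.19 for Sp1. Over the whole interval, 16 to 18 h relative to 2 to 4 h, Sp1 was higher, at a log2 ratio of 4.01, and btd lower, at -3.37. In that comparison 41.2% of 10190 genes were called higher and 33.5% lower. Of all calls, 57.9% were higher at 6 to 8 h than at 2 to 4 h as deposited and 71.5% with equal sums. From 6 to 8 h on to 16 to 18 h they were 52.8% as deposited and 71.5% with equal medians, and over the whole interval 55.1% and 67.6%. Neuron and glia markers also differed with stage. The sum over 5 of them was 86.0 FPKM at 2 to 4 h, when Syt1 and brp were at 0. It was 624 at 6 to 8 h and 815 at 16 to 18 h. These neuron and glia markers did not move together. At 6 to 8 h and 16 to 18 h, elav was at 469 and 208 FPKM in that order. Syt1 was at 1.45 and 265, and brp at 0.947 and 135. Muscle markers differed more, with a sum over 7 markers of 348 FPKM in embryos of 2 to 4 h, 1977 in those of 6 to 8 h and 92466 in those of 16 to 18 h, when Mhc and up were at 0. The largest member of this sum at each stage was Act57B, at 262, 1730 and 58553 FPKM in that order. At 6 to 8 h, relative to 2 to 4 h, Mlp84B was called lower, at 12.9 against 52.3 FPKM. The other 6 were called higher, beside 25.9% of all genes tested higher and 18.9% lower. The sum over 5 haemocyte markers, with He at 0 at each stage, was 242 in embryos of 2 to 4 h, 389 in those of 6 to 8 h and 474 in those of 16 to 18 h. Its members did not move together. Of the 2 that reached 5 FPKM, Pxn was at 1.95 at 2 to 4 h and 359 at 16 to 18 h, and srp at 239 and 113. The part of these markers was not tested.

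The balance between the 2 genes does not depend on how a column was scaled, since it is taken within a column, and FPKM is per length of transcript. The FPKM of Sp1 was 3.62 times that of btd in the leg disc, 1.49 times in the haltere disc and 2.38 times in the wing disc. In the pharate leg it was 5.86 times and in the pharate haltere 6.39 times that of btd. At 2 to 4 h the balance was the other way, with btd at 83.7 times the FPKM of Sp1. At 6 to 8 h btd was at 1.33 times the FPKM of Sp1, and at 16 to 18 h Sp1 was at 3.84 times that of btd. Sp1 was thus the more abundant transcript in all 5 appendage columns where both were above 0 and in the last embryo stage. In the wing disc, the pharate haltere and embryos of 2 to 4 h and 16 to 18 h, at least 1 of the 2 levels behind the ratio was under 10 FPKM.

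**Figure D4:**
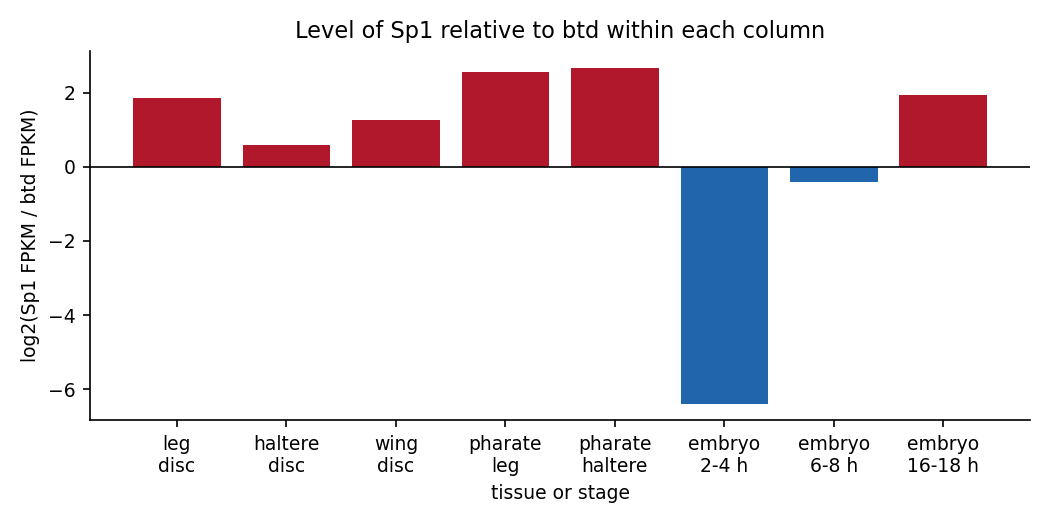
Bars give log2 of the FPKM of Sp1 over the FPKM of btd in each column, with the pharate wing left out because both genes were listed at 0 there. Bars point up where Sp1 is the more abundant, in discs, pharate appendages and embryos at 16 to 18 h, and down where btd is, at 2 to 4 h (83.7 times) and 6 to 8 h (1.33 times).

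Dll and dac, the gene of intermediate leg fate, can be set beside the pair in the same way. The FPKM of Sp1 was 0.906 times that of Dll in the leg disc, 0.807 times in the pharate leg, 1.06 times at 6 to 8 h and 0.944 times at 16 to 18 h. In these 4 columns Sp1 and Dll were at nearly equal levels. Elsewhere Dll was the more abundant, with Sp1 at 0.295 times its FPKM in the haltere disc, 0.0198 times in the wing disc, 0.0729 times in the pharate haltere and 0.0365 times at 2 to 4 h. Dll itself was listed at 866 in leg, 57.8 in haltere and 229 in wing discs, so that unlike Sp1 it was higher in the wing disc than in the haltere disc. The FPKM of btd was 0.250 times that of Dll in the leg disc, 0.138 times in the pharate leg, 3.05 times at 2 to 4 h, 1.42 times at 6 to 8 h and 0.246 times at 16 to 18 h. Against dac, listed at 467 in leg, 22.2 in haltere and 29.7 in wing discs, Sp1 was at 1.68 times in the leg disc and 2.38 times in the pharate leg. For btd the values against dac were 0.464 times in the leg disc and 0.406 times in the pharate leg.

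Of the Sp and KLF zinc finger genes, the family to which both belong, only Sp1 and btd of those counted were called higher in the leg disc. Of 10 family genes matched, 8 reached 5 FPKM in the leg or wing disc. The 2 higher in the leg disc were Sp1 and btd, 5 were within 2-fold and 1, CG5669, was lower. Over all genes tested, 10.7% were higher and 3.55% lower. CG5669 is named Spps by RefSeq and is the remaining Sp gene of the fly. Its level was 0 as listed in the leg disc, against 74.2 FPKM in the wing disc. CG5669 was listed at 0 in 5 of the 9 columns. Against the haltere disc, Sp1 and btd were again the 2 called higher of 7, with 5 within 2-fold and 0 lower. Over all genes tested, 3.24% were higher and 12.6% lower in that comparison. Over the wing disc, the haltere disc had Sp1 and btd higher and CG5669 lower of 8, beside 15.5% of all genes tested higher and 4.29% lower. Among the others, CG3065 was listed at 177 in leg, 174 in haltere and 154 in wing discs, and cbt at 91.5 in leg, 123 in haltere and 102 in wing discs. In pharate legs, 0 of 7 were lower than in pharate halteres (14.3% of all genes tested) and 1, CG9895, was lower than in pharate wings (14.7%). A 3rd gene beside the pair, CG12029 (dar1, a regulator of dendrite growth), was called higher in the pharate leg than in either. It was listed at 59.8 FPKM in legs, 12.2 in halteres and 21.5 in wings of pharate adults. That made 3 of 7 higher in each comparison. Over all genes tested, 17.1% were higher than in the pharate haltere and 21.7% than in the pharate wing. For luna the levels were 18.2 in leg, 18.9 in haltere and 29.1 in wing discs. For CG9895 they were 13.2 in leg, 26.4 in haltere and 18.4 in wing discs. The terminal gap gene hkb and Bteb2 were listed at 0 in all discs and pharate appendages. The level of hkb was 348 in embryos of 2 to 4 h, 120.0 in those of 6 to 8 h and 18.1 in those of 16 to 18 h. At 6 to 8 h, relative to 2 to 4 h, 5 of 8 family genes were called higher (Sp1, luna, CG12029, cbt and CG3065) and 1, hkb, lower, beside 25.9% of all genes tested that were higher and 18.9% that were lower. At 16 to 18 h, relative to 6 to 8 h, 3 of 9 were called higher (CG9895, CG12029 and cbt) and 4 lower (btd, hkb, CG5669 and CG3065), beside 34.7% of all genes tested that were higher and 31.1% that were lower.

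Of 12 genes known to act upstream of, beside or below the pair in the ventral limb, 5 were called higher in leg than in wing discs, 1 lower and 6 within 2-fold (10.7% higher and 3.55% lower over all genes tested), with a median log2 ratio of -0.16, against 0.05 over all genes above 0. The zinc finger gene disco-r was listed at 218 in leg, 10.6 in haltere and 7.75 in wing discs, and disco at 202 in leg, 16.9 in haltere and 9.75 in wing discs. The others called higher were Dll, the EGF signalling gene rho, and hth, which was listed at 0 in the wing disc. The ligand genes wg (177 in leg, 144 in haltere and 199 in wing discs) and dpp (122 in leg, 97.5 in haltere and 134 in wing discs) were within 2-fold. Against the haltere disc 5 of the 12 were called higher and 2 lower (3.24% and 12.6% over all genes tested), with a median of 0.43, against 0.01 over all genes. Among the 11 of the 12 above 0 in leg and wing discs, the largest log2 ratio of leg over wing disc was that of disco-r, 4.64, against 6.23 for btd and 7.15 for Sp1.

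Of 19 genes of the leg axes, 10 were called higher in leg than in wing discs and 4 lower (10.7% and 3.55% over all genes tested), with a median log2 ratio of 0.87 against 0.05 over all genes. The 10 included hth, also among the ventral limb genes above, which was listed at 0 in the wing disc. With genes above 0 in both discs only, 9 were higher. Over the haltere disc 9 were higher and 5 lower, or 3 lower with 10 FPKM added (3.24% and 12.6% over all genes tested), with a median of 0.81 against 0.01. The homeobox gene Lim1, of the proximal and distal leg, was listed at 54.2 in leg, 2.05 in haltere and 0.443 in wing discs. Of 18 wing field genes, 16 were called lower in leg than in wing discs, and 1, sd, was higher and was listed at 0 in the wing disc, with a median log2 ratio of -2.46 (10.7% higher and 3.55% lower over all genes tested). Among them vg and salr (2.84 in leg, 229.7 in haltere and 333 in wing discs) were low where Sp1 and btd were high. Of 8 Hox genes, 4 reached 5 FPKM in the leg or wing disc, and Ubx, Scr and abd-A were called higher in the leg disc, beside 10.7% of all genes tested. Scr was listed at 36.4 in leg, 2.14 in haltere and 0.386 in wing discs, and abd-A at 5.55 in leg, 14.9 in haltere and 1.54 in wing discs.

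In embryos, btd was compared with 15 genes of head and gap patterning, itself among them. At 6 to 8 h, relative to 2 to 4 h, 7 of these were called lower and 1, slp2, higher (18.9% and 25.9% over all genes tested), with 7 within 2-fold, btd among them, and a median of -0.61 against -0.16 over all genes. At 16 to 18 h, relative to 6 to 8 h, 12 of 15 were called lower, btd included, and 0 higher (31.1% and 34.7% over all genes tested), with a median of -2.57 against -0.43. The gap genes gt (531 FPKM in embryos of 2 to 4 h, 72.4 in those of 6 to 8 h and 6.51 in those of 16 to 18 h) and tll (342, 71.4 and 10.4 FPKM at the same stages in that order) were lower already at 6 to 8 h. The posterior gene cad was lower at 6 to 8 h as well, at 62.5 FPKM, against 356 at 2 to 4 h. Of 9 neural precursor genes with enough signal, 6 were within 2-fold at 6 to 8 h of their level at 2 to 4 h. The other 3 were called higher at 6 to 8 h, a share near the 25.9% of all genes tested, and were wor (5.40 in embryos of 2 to 4 h, 339 in those of 6 to 8 h and 19.4 in those of 16 to 18 h), Dr and pros. At 16 to 18 h, relative to 6 to 8 h, 8 of the 9 were called lower, beside 31.1% of all genes tested.

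The genes most like each member in pattern were found by the distance between profiles of log2(FPKM + 1), each table centred on its own mean, over the 9 columns and 10673 other genes that reached 10 FPKM in any column. For Sp1 they were the homeobox gene lbl (distance 2.32), AP-2, a transcription factor gene needed for leg joints (2.33), the Hox gene Scr (2.43), the forkhead gene fd96Cb (2.74) and the Pax gene Poxm (3.39). All 5 were highest in the leg disc among discs and in the pharate leg among pharate appendages, and lowest at 2 to 4 h in embryos. They were chosen on these same columns, so these shared highs and lows are in part set by the choice. AP-2 was listed at 640.05 in leg, 22.3 in haltere and 4.08 in wing discs, and fd96Cb at 1453 in leg, 122 in haltere and 11.6 in wing discs. For btd the nearest genes were the head and segmentation gene slp1 (2.93), the pair-rule gene odd (3.77), the Sox gene D (3.80), the T-box gene mid (3.93) and disco (3.97). The closest of these, slp1, was listed at 487 in embryos of 2 to 4 h, 393 in those of 6 to 8 h and 46.4 in those of 16 to 18 h, and at 32.7 in leg, 8.12 in haltere and 0 in wing discs.

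**Figure D5:**
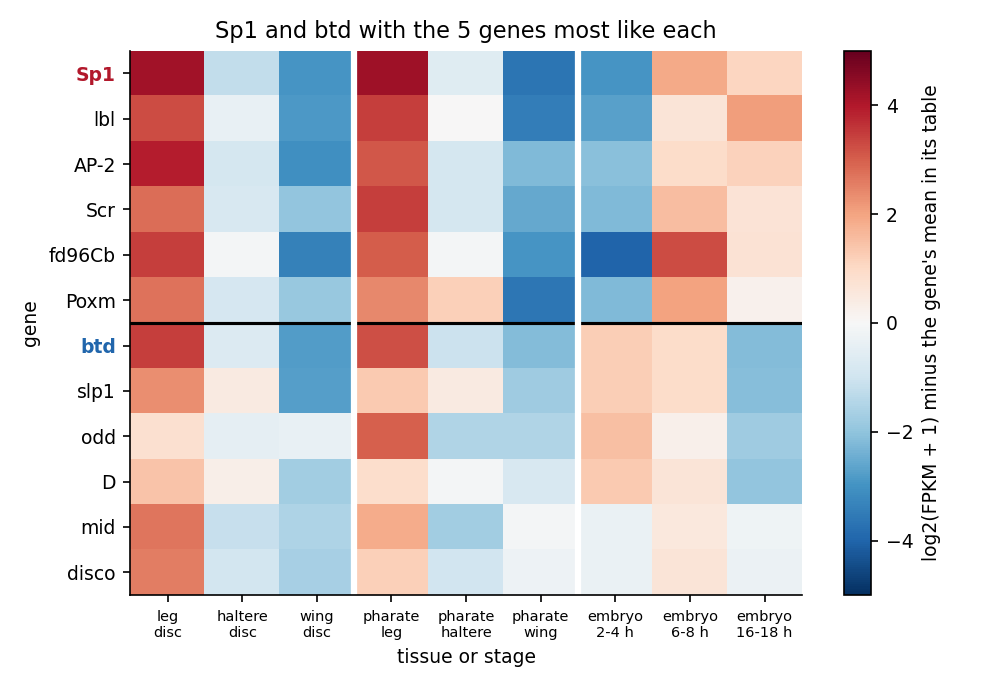
Colours give log2(FPKM + 1) minus the mean of the gene over the 3 columns of its table, from blue (low) to red (high), for Sp1 and the 5 genes most like it (upper block) and btd and the 5 most like it (lower block). Both members are red in the leg disc and pharate leg, but at 2 to 4 h Sp1 is blue and btd is red.

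The place of each member in the order of the other changed with the columns used. The distance itself grows with the number of columns. Over 9 columns btd was the 25th nearest gene to Sp1, and Sp1 the 328th nearest to btd, at a distance of 5.75. Over the 6 disc and pharate columns the distance was 2.10, btd was the 5th nearest to Sp1 and Sp1 the 8th nearest to btd. Over the 3 disc columns the distance was 0.95, with btd the 5th nearest to Sp1 and Sp1 the 11th nearest to btd. Over the 3 pharate columns it was 1.87, with btd the 32nd and Sp1 the 259th. Over the 3 embryo columns it was 5.35, with btd the 9314th and Sp1 the 8064th. The genes nearest to btd also changed with the columns, to AP-2, Lim1, H15, Scr and fd96Ca over the 6 appendage columns.

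Of the genes that flank the pair on chromosome X, those listed above 0 in leg and wing discs were at like levels in both. The 3 nearest protein-coding genes on each side in RefSeq order all had a matching row, and this set was chosen after the values were seen. On the side of btd, nej, which encodes the histone acetyltransferase CBP, was listed at 53.6 FPKM in leg, 56.1 in haltere and 62.5 in wing discs. The phosphatase gene l(1)G0232 (Ptpmeg2) was listed at 167 in leg, 151 in haltere and 165 in wing discs, and CG3106 at 0 in leg, 1.75 in haltere and 0 in wing discs. On the side of Sp1, CG1354 was listed at 1981 in leg, 1831 in haltere and 1651 in wing discs, CG32698 at 3.63 in leg, 6.87 in haltere and 2.99 in wing discs, and Ser7 at 0 in each disc. Of the 4 that were above 0 in the leg and wing discs, the log2 ratios of leg over wing disc ran from -0.22 for nej to 0.26 for CG1354. Among these 4, CG32698 was under the minimum of 5 FPKM in both discs. The remaining 2, CG3106 and Ser7, were listed at 0 in both discs and have no ratio. In pharate appendages the levels of these genes differed more. Higher in the leg than in the haltere were l(1)G0232, at 387 in legs, 110 in halteres and 396 in wings, and nej, at 22.7 in legs, 9.92 in halteres and 50.5 in wings. Both were as high or higher in the pharate wing, unlike Sp1 and btd. For CG1354 the levels were 196 in legs, 462 in halteres and 173 in wings, for CG32698 19.3 in legs, 58.4 in halteres and 10.6 in wings, and for Ser7 277 in legs, 576 in halteres and 73.4 in wings. These 3 were highest in the pharate haltere. CG3106 was listed at 2.95 in pharate legs and at 0 in pharate halteres and wings.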

How the data were processed

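Sp1 and btd were read from 3 tables of FPKM, for embryos, discs and pharate appendages. The FPKM values were deposited by the authors, 1 per gene and tissue, per the file headers. The submitters' processing notes name TopHat 1.1.4, Cuffdiff and the build dm3. The annotation, the scaling between columns and the number of reads are not given in the sources used here, so the depth behind a value is unknown. Each table held 13934 rows, of which 248 shared 77 names and were left out. Ratios used 1 FPKM added to each level. Rank, likeness and counts were computed with Python 3.11.15, numpy 2.4.6 and pandas 2.3.3. Calls at 2-fold and likeness were checked with changes or profiles planted in the deposited values. Ranks were not checked in this way. The members and gene lists were chosen with earlier results of these data known. Named genes were the pair, their family, the 5 most alike of each and the 3 furthest apart of each list, with Dll, dac, vg and Ubx. Other genes named (rho, wg, dpp, slp2, the flanking genes and the 15 leg disc genes among them) were chosen after their values were seen. Of the lists, hh, Cg, NimC1, nSyb and CG42741 were not analysed here. Open chromatin peaks are in dm3 coordinates, and were not placed at the genes.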

Additional observations from a re-analysis of the deposited data

Results flagged for a closer look

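For Sp1 and btd the ratio of leg over haltere had the same direction in discs and pharate appendages. Ratios over the wing were not compared between the stages, since both genes were listed at 0 in the pharate wing. Among the other genes taken by the naming rule, those listed at 0 in any column compared were left out. They include genes whose listed levels turned around, such as the haemocyte gene Pxn. It was at 66.5 FPKM in leg and 22.2 in wing discs, and at 0 in pharate legs and 76.2 in pharate wings. The same held for hth in leg against haltere and for sd in haltere against wing. Of the rest, 3 markers of tissues other than disc epithelium had opposite directions at the 2 stages, which was not tested. The log2 ratio of leg over haltere was -1.76 in discs and 1.13 in pharate appendages for the fat body gene Fbp2, -1.81 and 1.34 for the larval serum protein gene Lsp2, and -1.69 and 4.42 for the muscle gene Mlc2.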

How the results depend on the processing

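Of 56 recomputed log2 ratios of Sp1 and btd, 54 kept their side of 2-fold and 0 called ratios changed direction. With 10 FPKM added, haltere disc over wing disc came to 0.90 for Sp1 and 0.85 for btd. The same setting made other ratios smaller: leg over wing disc 5.77 for Sp1 and 4.25 for btd, leg over haltere disc 4.88 and 3.40, pharate leg over haltere 3.85 and 2.19, and 6 to 8 h over 2 to 4 h 2.71 for Sp1. At 16 to 18 h, Sp1 came to 2.00 over 2 to 4 h, and btd to -2.57 over 2 to 4 h and -2.30 over 6 to 8 h. Counts over all genes at least 2-fold apart moved by over 1.5 times as follows. With 10 FPKM added, leg disc over wing disc gave 512 higher, and leg disc over haltere disc 169 higher and 652 lower, and haltere disc over wing disc 212 lower. With a minimum of 20 FPKM, leg disc over wing disc gave 548 higher and haltere disc over wing disc 868 higher. With no minimum, leg disc over haltere disc gave 493 higher. Columns scaled to equal sums gave 497 higher for leg over haltere disc, 1551 lower for haltere over wing disc, 1016 higher and 2584 lower for pharate leg over haltere, and 2954 higher and 894 lower for pharate haltere over wing. Columns scaled to equal medians gave 1715 lower at 16 to 18 h against 6 to 8 h. With genes above 0 in both columns only, a setting added after the data were seen, there were 168 lower for leg over wing disc, 226 lower for haltere over wing disc, and 2167 and 2027 higher at 16 to 18 h against 6 to 8 h and 2 to 4 h. Of counts within gene lists, 7 moved. With 10 FPKM added, leg axis genes lower in leg than in haltere discs were 3, Hox genes 1 higher and 0 lower there, and neural precursor genes higher at 16 to 18 h than at 2 to 4 h 0. With no minimum, Hox genes lower in leg than in haltere discs were 3. With genes above 0 in both columns only, 0 family genes were lower and 0 wing field genes higher in leg than in wing discs. Of the 5 genes most like Sp1, 1 was kept over 3 disc columns, 3 over 6 appendage columns and 3 with 10 FPKM added. Of the 5 most like btd, 0 were kept over 3 disc columns, 0 over 6 appendage columns, 2 by Pearson correlation and 3 with 10 FPKM added. The cause was not tested, except that the higher minimum and the exclusion of zeros leave fewer genes. No paired analysis was possible because each tissue has a single value, and for the same reason no replicate could be left out.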
